A study of Mus musculus with 9 samples.

Results

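The 10 genes described here mark Langerhans cells and the subsets of dendritic cells, and their transcripts were measured in mouse back skin during imiquimod-driven inflammation and after a bergapten gel. They were chosen by symbol, as the rows of the deposited gene table named Cd207, Epcam, Itgax, Flt3, Zbtb46, Clec9a, Cd209a, Clec10a, Siglech and Irf8. All 10 were found, among 56859 gene rows in all, and all 10 held enough counts to be tested. RNA sequencing was done on shaved back skin of wild-type SPF (specific pathogen free) Balb/c mice of 6 to 8 weeks. The first group received imiquimod (IMQ) for 7 days and a bergapten gel for 2 days and is called gel-treated skin below. The second received IMQ for 7 days, and the third, the control, received vaseline for 7 days. Each group had 3 libraries. IMQ activates Toll-like receptor 7 and, as a cream, gives mouse skin an inflammation that resembles psoriasis, and bergapten is a furanocoumarin made by plants. The labels list no group given IMQ with an empty gel, so the gel and bergapten itself cannot be told apart. How the 2 gel days fell relative to the 7 IMQ days, and the day of sampling, are not stated here. Any difference in timing between these groups therefore cannot be told apart from the gel. Nothing in the labels states whether replicates came from different mice; the p-values therefore describe sample-to-sample spread, part of which may be technical.

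Dendritic cells take up antigen, move to lymph nodes and present it to T cells. Langerhans cells are their relatives in the epidermis, kept up locally under interleukin 34 and transforming growth factor beta, and they carry langerin, the lectin encoded by Cd207. Conventional dendritic cells of the dermis fall into type 1 (cDC1), which depend on Irf8 and Batf3 and cross-present antigen to CD8 T cells, and type 2 (cDC2), which depend on Irf4 and present mainly to CD4 T cells. Plasmacytoid dendritic cells (pDC) sense nucleic acids through Toll-like receptors 7 and 9 and release type I interferon. The comparisons ask how these markers stood in inflamed skin against control skin, and in gel-treated skin against inflamed skin.

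Counted reads per library were 15855439 to 19862905 in gel-treated skin, 18890579 to 19456060 in IMQ skin and 16080479 to 18757911 in vaseline skin. Levels between groups are given in CPM, counts brought to a common library size, after TMM scaling, a correction for differences in library composition. The 3 IMQ libraries differed more among themselves than those of the other groups, with a mean variance of log2 CPM over genes of 0.238, against 0.102 in gel-treated skin and 0.1 in vaseline skin. IMQ replicate 2 stood furthest apart, with a quality weight of 0.272 in a fit that weights libraries, against 0.558 in IMQ replicate 3 and 0.983 or more in the others. In gel-treated replicate 2, the ribosomal RNA gene Rn18s took 1.79% of counts, against 0.179% to 0.27% in the other 8 libraries. Results that turn on single libraries are given with and without them. Bulk skin RNA cannot separate fewer cells of a type from less RNA per cell.

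In IMQ skin against vaseline skin, 6 of the 10 markers changed at an adjusted p under 0.05 in edgeR's quasi-likelihood test, 2 higher (Flt3 and Irf8) and 4 lower (Cd207, Cd209a, Clec10a and Siglech). Of all 18005 genes tested, 43.2% were called in that comparison (23% higher and 20.2% lower). The same 6 markers were those whose libraries did not overlap between the 2 groups, as for 52.3% of all genes (26.9% higher and 25.4% lower). The median log2 fold change of the markers was -0.16, against 0.03 over all genes. In gel-treated skin against IMQ skin, 4 of the 10 were called, 3 higher (Itgax, Siglech and Irf8) and 1 lower (Clec10a), where 4.83% of all genes were called, 2.18% higher and 2.65% lower. The median of the markers there was 0.59, against 0.0 over all genes. Libraries of both groups did not overlap for 7 markers, 6 higher and 1 lower, where 26.4% of all genes showed no overlap (13.3% higher and 13.2% lower). In gel-treated skin against vaseline skin, 6 markers were called, 3 higher (Itgax, Flt3 and Irf8) and 3 lower (Cd209a, Clec10a and Siglech), where 40.4% of all genes were called (20.9% higher and 19.5% lower). Again the same 6 did not overlap between groups, as for 59.2% of all genes (30% higher and 29.2% lower). The share called among the markers was therefore nearer to that of all genes in both comparisons with vaseline than in the comparison with IMQ skin. The markers were chosen with earlier results of these data known, so these shares are a description. Each pair of comparisons shares 3 libraries, so they are not independent of each other. The count of 4 moved with the libraries included: it was 2 without gel-treated replicate 1 or without gel-treated replicate 2, and 7 without IMQ replicate 3. With only the 6 libraries compared it was 1. The number called over all genes moved in the same direction in each of these fits, and is given in the closing section.

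**Figure D1:**
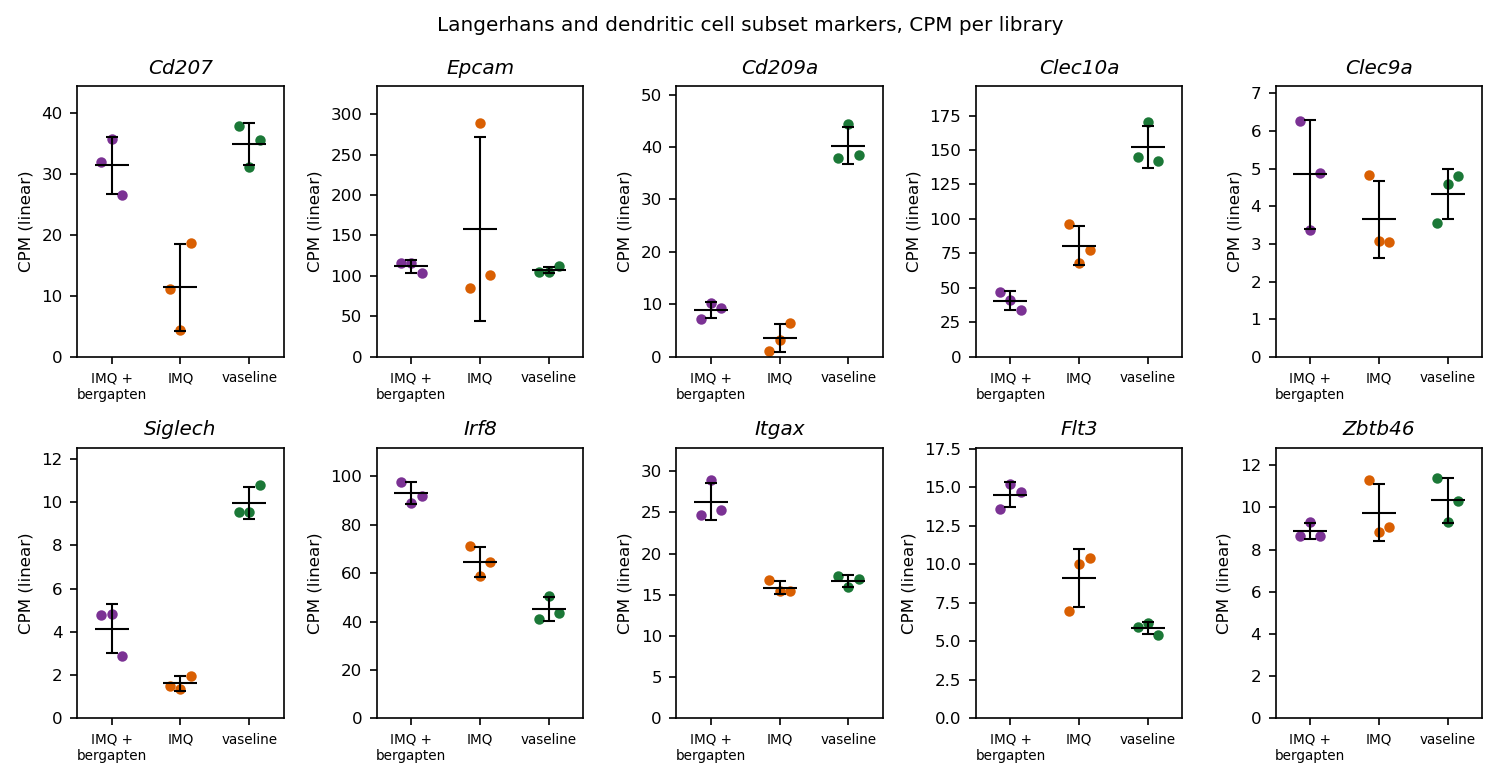
CPM (linear axis from 0) of each of the 10 markers in gel-treated, IMQ and vaseline libraries, left to right. Points are single libraries, and bars with lines are the mean and SD of 3 libraries. Cd209a, Clec10a and Siglech lie highest in vaseline skin, Itgax, Flt3 and Irf8 highest in gel-treated skin, and the Epcam point at 289 CPM is IMQ replicate 2.

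Levels can be compared between genes on the authors' FPKM scale, which divides by gene length. In gel-treated skin Epcam came first at 56.7 ± 4.22 FPKM and Irf8 next at 27.7 ± 1.93 (SD, n = 3). Cd207 at 21.3 ± 3.01 and Clec10a at 18.1 ± 3.17 FPKM overlapped, as did Itgax at 6.71 ± 0.448 and Cd209a at 6.23 ± 0.97 FPKM. Flt3 followed at 3.79 ± 0.147 FPKM, and Siglech, Zbtb46 and Clec9a were lowest, between 1.53 and 1.87 FPKM with overlapping ranges. In IMQ skin the order was Epcam (76.3 ± 51.3 FPKM), Clec10a (34.8 ± 7.03) and Irf8 (18.8 ± 2.4). Next came Cd207 (7.61 ± 4.92 FPKM), Itgax, Cd209a, Flt3 and Zbtb46, each overlapping its neighbour, and Clec9a at 1.11 ± 0.332 and Siglech at 0.705 ± 0.168 FPKM were lowest by mean. Cd209a, at 0.75 to 4.46 FPKM in IMQ skin, overlapped both of them. In vaseline skin Clec10a led at 62.9 ± 5.73 FPKM, ahead of Epcam at 50.6 ± 2.14, Cd209a at 26.1 ± 1.98, Cd207 at 22.1 ± 2.44 and Irf8 at 12.5 ± 1.22 FPKM. Siglech at 4.17 ± 0.323 overlapped Itgax at 3.98 ± 0.22 FPKM, and Zbtb46, Flt3 and Clec9a were lowest there, between 1.26 and 1.87 FPKM. Clec10a and Cd209a thus stood in the upper part of the order in vaseline skin, and Cd209a in the middle of it in both IMQ groups.

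The promoters of Cd207, Cd209a and Siglech are shown because these 3 markers share a pattern: lowest in IMQ skin, with every gel-treated library above every IMQ library. RefSeq (GRCm38.p6) gave a window for 9 of the 10 markers. Each sequence is the 250 bases before the gene's start, 5′ to 3′ on the gene's strand, and capitals mark matches on either strand to GAGGAA, a form of the core bound by ETS factors such as PU.1, or to CANNTG, the E-box.
Cd207, chr6:83677858-83678107, minus strand: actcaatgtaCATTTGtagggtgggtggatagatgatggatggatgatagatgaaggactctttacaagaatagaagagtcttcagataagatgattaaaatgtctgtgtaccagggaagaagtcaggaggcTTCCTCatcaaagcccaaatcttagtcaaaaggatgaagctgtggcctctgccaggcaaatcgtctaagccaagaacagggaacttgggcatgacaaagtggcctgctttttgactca
Cd209a, chr8:3748985-3749234, minus strand: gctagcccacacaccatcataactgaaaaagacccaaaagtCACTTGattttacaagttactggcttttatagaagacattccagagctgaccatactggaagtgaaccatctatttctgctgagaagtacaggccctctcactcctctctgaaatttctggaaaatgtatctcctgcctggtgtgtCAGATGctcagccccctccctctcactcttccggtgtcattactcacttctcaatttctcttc
Siglech, chr7:55767934-55768183, plus strand: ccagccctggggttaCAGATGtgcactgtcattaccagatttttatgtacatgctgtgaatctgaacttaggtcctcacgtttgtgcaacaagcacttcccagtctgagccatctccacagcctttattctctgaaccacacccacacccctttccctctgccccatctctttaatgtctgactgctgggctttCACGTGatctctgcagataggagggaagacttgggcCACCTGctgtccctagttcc
Cd207 held 1 GAGGAA match, starting at position -118 from the gene's start, and 1 E-box at -240. Cd209a held 2 E-boxes, at -209 and -63, and Siglech held 3, at -235, -56 and -20. Of all 32851 promoter windows of that length, 23.3% held GAGGAA and 66.2% held CANNTG. None of the marked matches overlap each other. These matches are letters in a window and do not show binding.

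Cd207 (ENSMUSG00000034783, chromosome 6, 83648197 to 83654839, minus strand, GRCm39, as are all gene coordinates below) encodes langerin, which forms the Birbeck granules of Langerhans cells and is also made by some mouse dermal cDC1. It had 32.0, 35.8 and 26.5 CPM in gel-treated skin, 11.1, 4.42 and 18.6 CPM in IMQ skin, and 37.9, 31.1 and 35.5 CPM in vaseline skin. All IMQ libraries lay below all libraries of the other groups, which overlapped each other, and IMQ replicate 2 was lowest. Cd207 fell in IMQ skin against vaseline skin by 1.61 on the log2 scale (SE 0.41; adjusted p = 0.0142), a 3.06-fold lower level. That call held in all 9 fits that leave out 1 library, with log2 values from -2.19 to -1.23 (the last without IMQ replicate 2) and an adjusted p of at most 0.0485. For gel-treated against IMQ skin the log2 difference was 1.46 (95% interval 0.51 to 2.41) and did not pass, at an adjusted p of 0.0864. It passed without IMQ replicate 2 (log2 1.08, adjusted p = 0.0231) and without IMQ replicate 3 (log2 2.01, adjusted p = 0.0121). Against vaseline skin, gel-treated skin differed by -0.15 (95% interval -1.06 to 0.77; adjusted p = 0.798).

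Epcam (ENSMUSG00000045394, chromosome 17, 87943407 to 87958557, plus strand) encodes an adhesion molecule of Langerhans cells that hair follicle and gland epithelium also make. It had 116, 116 and 103 CPM in gel-treated skin, 84.7, 289 and 101 CPM in IMQ skin and 105, 105 and 112 CPM in vaseline skin. Only IMQ replicate 2 stood out, and the groups overlapped in each comparison. The log2 difference was 0.56 in IMQ against vaseline skin (95% interval -0.40 to 1.52; adjusted p = 0.313), and it was -0.20 without IMQ replicate 2 (adjusted p = 0.116). Against IMQ skin, the difference in gel-treated skin was -0.50 (95% interval -1.46 to 0.46; adjusted p = 0.525), and 0.27 without IMQ replicate 2. Epithelial genes differed in both directions in that library. Krt79, a keratin of the follicle opening and sebaceous duct, reached 2370 CPM there, where IMQ replicates 1 and 3 had 197 and 309 CPM, and Krt17 had 2940 CPM, against 798 and 1470 CPM. Krt14, a keratin of basal keratinocytes, was lower there at 4350 CPM, against 7000 and 6700 CPM, and Krt5 had 2310 CPM, against 2730 and 2710 CPM. IMQ replicate 3 stood apart in keratins of the growing hair follicle, with 253 CPM of Krt71, 220 CPM of Krt25 and 80.3 CPM of Krt27, each under 1 CPM in IMQ replicates 1 and 2. Of the markers, Cd207, Flt3, Cd209a and Siglech were also highest among IMQ libraries in replicate 3. Itgax, Zbtb46, Clec9a, Clec10a and Irf8 were highest in IMQ replicate 1. Other cDC1 genes were likewise divided, with Xcr1 and Itgae highest in IMQ replicate 3 and Wdfy4, Naaa and Batf3 in IMQ replicate 1. Over the list of 10 epithelial and follicle genes, summed levels were 9210 to 12800 CPM in gel-treated skin, 11100 to 12700 CPM in IMQ skin and 5490 to 6020 CPM in vaseline skin. Of the 10, 5 rose and 1 fell in IMQ against vaseline skin, and 1 of the 5, Krt71, rested on IMQ replicate 3 (log2 8.12, adjusted p = 0.0465, and 1.11 at 0.263 without that library). edgeR and DESeq2 called 0 in gel-treated against IMQ skin, where 4 had an unadjusted p under 0.05. The part of the follicle and other epithelial genes in the Epcam, Cd207 and Cd209a values was not tested. Of the 2 Langerhans markers, Cd207 thus passed the test in IMQ against vaseline skin and Epcam did not.

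Among 11 other genes of the Langerhans list, 5 rose and 4 fell in IMQ skin against vaseline skin, with a median of 0.28. With 1 library left out, 3 to 5 rose and 1 to 5 fell; 1 fell without IMQ replicate 3 or vaseline replicate 2, 2 without IMQ replicate 2, and 3 rose without IMQ replicate 2, gel-treated replicate 3 or any 1 vaseline library. Il34, the Langerhans cell growth factor made by keratinocytes, fell to 13.3 ± 0.615 CPM in IMQ skin, against 25.6 ± 0.868 CPM in vaseline skin (SD, n = 3 each; log2 -0.94, SE 0.10, adjusted p = 6.96e-05). Tgfb1, which encodes transforming growth factor beta 1, rose by 0.72 (SE 0.12, adjusted p = 0.000733), and Runx3, a transcription factor needed for Langerhans cells in mice, rose by 1.19 (SE 0.17, adjusted p = 0.000336). Cd24a, a surface glycoprotein of Langerhans cells and also of keratinocytes and neutrophils, rose by 2.24 (SE 0.08, adjusted p = 2.44e-07). In gel-treated against IMQ skin, edgeR, DESeq2 and the weighted limma fit each called 0 of these 11, and 1 had an unadjusted p under 0.05. Il34 stood at 14.3 ± 0.931 CPM in gel-treated skin, a log2 difference of 0.10 from IMQ skin (SE 0.10, adjusted p = 0.604), and it remained below vaseline skin (log2 -0.84, SE 0.10, adjusted p = 0.000166). Cd207 and Il34 thus differed in gel-treated skin: the langerin transcript lay within the vaseline range or just under it, while Il34 lay near the IMQ level.

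Itgax (ENSMUSG00000030789, chromosome 7, 127728719 to 127749829, plus strand) encodes CD11c, the integrin chain used to recognise dendritic cells, which some macrophages share. It had 24.7, 28.9 and 25.3 CPM in gel-treated skin, 16.8, 15.4 and 15.4 CPM in IMQ skin and 17.3, 15.9 and 16.9 CPM in vaseline skin. Every gel-treated library lay above every library of the other groups, which overlapped. Itgax rose in gel-treated against IMQ skin by 0.73 (SE 0.11, adjusted p = 0.00768) and against vaseline skin by 0.66 (SE 0.11, adjusted p = 0.000854), and both calls held in all 9 fits with 1 library left out. In IMQ against vaseline skin its log2 difference was -0.08 (95% interval -0.31 to 0.16; adjusted p = 0.6).

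Flt3 (ENSMUSG00000042817, chromosome 5, 147267551 to 147337299, minus strand) encodes the receptor for Flt3 ligand, the growth factor on which conventional and plasmacytoid dendritic cells depend. It had 13.6, 15.2 and 14.7 CPM in gel-treated skin, 6.96, 10 and 10.4 CPM in IMQ skin and 5.92, 6.21 and 5.41 CPM in vaseline skin. The 3 groups were fully apart, with gel-treated skin highest and vaseline skin lowest. Flt3 rose 2.48-fold in gel-treated against vaseline skin (log2 1.31, SE 0.17, adjusted p = 0.000273). In IMQ against vaseline skin it rose by 0.64 (SE 0.18, adjusted p = 0.0136), a call lost without IMQ replicate 3 (adjusted p = 0.0532) and without vaseline replicate 3 (adjusted p = 0.0633). For gel-treated against IMQ skin the difference of 0.67 (95% interval 0.29 to 1.05) just missed the threshold (adjusted p = 0.0537), and it passed without IMQ replicate 2 (adjusted p = 0.0491) and without IMQ replicate 3 (adjusted p = 0.0319).

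Zbtb46 (ENSMUSG00000027583, chromosome 2, 181029555 to 181101219, minus strand) encodes a transcription factor of the conventional dendritic cell lineage that endothelium also makes. It had 8.66, 9.29 and 8.62 CPM in gel-treated skin, 11.3, 8.84 and 9.09 CPM in IMQ skin and 11.4, 9.28 and 10.3 CPM in vaseline skin, with overlap in all comparisons. Its log2 differences were -0.14 in gel-treated against IMQ skin (95% interval -0.48 to 0.20; adjusted p = 0.636), -0.08 in IMQ against vaseline skin (95% interval -0.42 to 0.25; adjusted p = 0.69) and -0.22 in gel-treated against vaseline skin (adjusted p = 0.276). Of the 3 genes shared by dendritic cell subsets, Itgax and Flt3 were therefore highest in gel-treated skin, and Zbtb46 showed no detectable difference.

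Clec9a (ENSMUSG00000046080, chromosome 6, 129385825 to 129401726, plus strand) encodes the cDC1 receptor for actin filaments laid bare on dead cells. It had 6.27, 3.38 and 4.89 CPM in gel-treated skin, 4.83, 3.07 and 3.05 CPM in IMQ skin and 3.56, 4.58 and 4.81 CPM in vaseline skin. All 3 groups overlapped. Its log2 difference was 0.40 in gel-treated against IMQ skin (95% interval -0.22 to 1.03; adjusted p = 0.434), -0.24 in IMQ against vaseline skin (95% interval -0.87 to 0.39; adjusted p = 0.53) and 0.16 in gel-treated against vaseline skin (95% interval -0.46 to 0.79; adjusted p = 0.676). The table's coordinates for Clec9a overlap those of Clec1b and Gm43914 on the same strand; these had 85 and 69 counts over the 9 libraries, against 695 for Clec9a.

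Irf8 (ENSMUSG00000041515, chromosome 8, 121463097 to 121483433, plus strand) encodes the transcription factor that cDC1 need to develop, which pDC, monocytes and B cells also make. It had 97.9, 89.0 and 92.1 CPM in gel-treated skin, 71.2, 58.8 and 64.5 CPM in IMQ skin and 41.2, 50.7 and 43.7 CPM in vaseline skin. The 3 groups were again fully apart in the same order as for Flt3. Irf8 rose 2.06-fold in gel-treated against vaseline skin (log2 1.04, SE 0.10, adjusted p = 4.72e-05) and by 0.52 in IMQ against vaseline skin (SE 0.10, adjusted p = 0.00246). Irf8 in gel-treated skin also rose against IMQ skin, by 0.52 (SE 0.10, adjusted p = 0.0236), a call lost without any 1 of the gel-treated libraries, replicate 1 (adjusted p = 0.104), replicate 2 (0.0578) or replicate 3 (0.0857). This Irf8 call was also lost with the replicate number as a block and with only the 6 libraries compared.

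Of 11 other cDC1 genes, 4 rose (Xcr1, Itgae, Wdfy4 and Naaa) and 1 fell (Ifi205) in gel-treated against IMQ skin, with a median of 0.73, against 0.0 over all genes. With 1 library left out the number that rose ran from 0 to 4, and DESeq2 called 5. Wdfy4, which cDC1 need for cross-presentation, stood at 55.3 ± 3.63 CPM in gel-treated skin and 29.2 ± 7.47 CPM in IMQ skin (log2 0.92, SE 0.16, adjusted p = 0.0162, lost without gel-treated replicate 1 or 3, at up to 0.0785). Xcr1, the chemokine receptor of cDC1, stood at 10.9 ± 1.63 CPM in gel-treated skin, 3.51 ± 2.27 CPM in IMQ skin and 8.46 ± 0.958 CPM in vaseline skin. It rose by 1.62 in gel-treated against IMQ skin (SE 0.38, adjusted p = 0.0442), a call lost without any 1 library other than IMQ replicate 2 or 3 (adjusted p up to 0.145). It fell by 1.26 in IMQ against vaseline skin (SE 0.38, adjusted p = 0.0236), lost without IMQ replicate 1 or vaseline replicate 2 (adjusted p up to 0.0694), and the log2 values without IMQ replicate 3 were 2.25 against IMQ skin and -1.92 in IMQ against vaseline skin. Xcr1 was named after its values were seen. Itgae, the CD103 integrin chain of dermal cDC1 and of resident T cells, rose by 0.73 in gel-treated against IMQ skin (SE 0.16, adjusted p = 0.0368), lost without any 1 library other than IMQ replicate 3 (adjusted p up to 0.124). Naaa, an acid amidase gene, rose by 1.08 (SE 0.24, adjusted p = 0.0391), lost without any 1 library other than IMQ replicate 1 or 2 (adjusted p up to 0.131). Ifi205 fell by 1.10 (SE 0.12, adjusted p = 0.00293) whichever library was left out, and it belongs to a family of near-identical interferon-inducible genes whose reads may be split among copies. In IMQ against vaseline skin 2 of the 11 rose (Itgae and Cadm1) and 4 fell (Xcr1, Tlr3, Ifi205 and Id2), and in gel-treated against vaseline skin 5 rose and 3 fell. Against vaseline skin the IMQ counts ran from 1 to 3 and from 1 to 5 with 1 library left out: 1 rose without vaseline replicate 1 or 3, and 1 fell without vaseline replicate 2. Batf3, the partner of Irf8 in cDC1, averaged 8.51 ± 0.939 CPM in gel-treated skin, 3.82 ± 1.31 CPM in IMQ skin and 3.11 ± 0.924 CPM in vaseline skin. It rose in gel-treated against vaseline skin (log2 1.45, SE 0.30, adjusted p = 0.00339), and its difference of 1.15 from IMQ skin did not pass (adjusted p = 0.0527). Clec9a, Xcr1, Wdfy4, Batf3 and Irf8 all had their highest mean in gel-treated skin, but of these Clec9a and Batf3 did not pass the test against IMQ skin. Not all genes of the list did so: Ifi205, Tlr3 and Id2 had their lowest mean in gel-treated skin, and Cadm1 had its highest in IMQ skin. The sizes of these differences were not compared with each other.

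Cd209a (ENSMUSG00000031494, chromosome 8, 3793397 to 3798984, minus strand) encodes a mouse lectin related to human DC-SIGN that marks dermal cDC2 and monocyte-derived dendritic cells. It had 7.23, 10.3 and 9.33 CPM in gel-treated skin, 1.09, 3.18 and 6.40 CPM in IMQ skin and 37.9, 44.3 and 38.5 CPM in vaseline skin. The groups were fully apart, with a wide spread in IMQ skin. Cd209a fell 11.3-fold in IMQ against vaseline skin (log2 -3.49, SE 0.48, adjusted p = 0.000595; log2 -4.27 without IMQ replicate 3) and 4.48-fold in gel-treated against vaseline skin (log2 -2.16, SE 0.44, adjusted p = 0.00519). In gel-treated against IMQ skin the log2 difference was 1.33 (95% interval 0.25 to 2.40; adjusted p = 0.15); without IMQ replicate 3 it was 2.07 and passed (adjusted p = 0.0105).

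Clec10a (ENSMUSG00000000318, chromosome 11, 70047023 to 70061660, plus strand) encodes the galactose-binding lectin MGL1 of dermal dendritic cells and macrophages. It had 47.3, 41.0 and 34.1 CPM in gel-treated skin, 96.2, 68.4 and 77.6 CPM in IMQ skin and 145, 170 and 142 CPM in vaseline skin. The order was the reverse of that of Flt3 and Irf8, with no overlap between groups. Clec10a fell in IMQ against vaseline skin by 0.92 on the log2 scale (SE 0.15, adjusted p = 0.000851) and fell again in gel-treated against IMQ skin by 0.98 (SE 0.15, adjusted p = 0.0108). Both calls held in all 9 fits with 1 library left out, but the call against IMQ skin was lost when only the 6 libraries compared were fitted (adjusted p = 0.0518). Against vaseline skin, gel-treated skin was 3.73-fold lower (log2 -1.90, SE 0.15, adjusted p = 1.52e-05). Clec10a and Cd209a, both low in inflamed skin, thus differed with the gel: Clec10a was lower than in IMQ skin and Cd209a had a higher level that did not pass the test. Macrophage genes that fell with the gel stand beside this: Mertk (log2 -1.11), Cd163 (-0.95) and Lyve1 (-1.49), 3 of 13 genes of that list, against 1 that rose (Ccr2, 0.76). All 4 of these calls were lost without gel-treated replicate 1 or replicate 3 (adjusted p up to 0.133). Adgre1 and Csf1r of the same list were not called, but every gel-treated library lay above every IMQ library for both. Adgre1 had 483 ± 72.9 CPM in gel-treated skin, against 206 ± 113 CPM in IMQ skin. The summed level of the list was 2280 to 2760 CPM in gel-treated skin, 2070 to 3170 CPM in IMQ skin and 1660 to 1960 CPM in vaseline skin, with no gene at 0. In IMQ against vaseline skin 7 of the 13 rose and 0 fell. The list's part in the Clec10a values was not tested.

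Among 10 other cDC2 genes, 5 rose and 4 fell in IMQ against vaseline skin, with 3 rising without vaseline replicate 1 or 3. Mgl2, the neighbour and near-copy of Clec10a that encodes CD301b, fell 23.0-fold to 4.92 ± 1.77 CPM in IMQ skin, against 113 ± 7.83 CPM in vaseline skin (log2 -4.52, SE 0.32, adjusted p = 1.2e-05). Cd209d, a paralog of Cd209a, fell by 2.42 (SE 0.36, adjusted p = 0.000714), and Irf4, the transcription factor of cDC2, fell to 23.7 ± 1.72 CPM in IMQ skin, against 59.3 ± 12.7 CPM in vaseline skin (log2 -1.32, SE 0.20, adjusted p = 0.000506). Reads of such paralogs could be shared, and how they were assigned is not given in the sources used here. Clec4a2, an inhibitory lectin of myeloid cells, rose by 2.00 (SE 0.29, adjusted p = 0.000714). For gel-treated against IMQ skin 2 of the 10 rose and 0 fell; 3 had an unadjusted p under 0.05, and DESeq2 called 3 higher and 0 lower. Mgl2 rose to 13.9 ± 4.55 CPM in gel-treated skin (log2 1.5, SE 0.30, adjusted p = 0.0313) and stayed 8.14-fold below vaseline skin. The Mgl2 call was lost without gel-treated replicate 1 or 2 or any 1 vaseline library (adjusted p up to 0.112). Sirpa, the receptor for CD47 on cDC2 and macrophages, rose to 350 ± 18.8 CPM in gel-treated skin, against 198 ± 23.2 CPM in IMQ skin (log2 0.82, SE 0.10, adjusted p = 0.0036), whichever library was left out. Irf4 did not follow, with 23.3 ± 5.88 CPM in gel-treated skin and a difference of -0.03 from IMQ skin (SE 0.20, adjusted p = 0.949). Clec10a and Mgl2 were thus called in opposite directions in gel-treated against IMQ skin.

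Siglech (ENSMUSG00000051504, chromosome 7, 55417926 to 55428673, plus strand) encodes a sialic acid-binding lectin of mouse pDC, found also on some tissue macrophages. It had 4.78, 4.82 and 2.86 CPM in gel-treated skin, 1.51, 1.35 and 1.98 CPM in IMQ skin and 9.54, 9.54 and 10.8 CPM in vaseline skin. The groups were fully apart, with IMQ skin lowest. Siglech fell 6.15-fold in IMQ against vaseline skin (log2 -2.62, SE 0.26, adjusted p = 3.23e-05) and 2.40-fold in gel-treated against vaseline skin (log2 -1.26, SE 0.24, adjusted p = 0.00202). Siglech in gel-treated skin rose against IMQ skin by 1.36 (SE 0.26, adjusted p = 0.0197), a call lost without gel-treated replicate 1 (adjusted p = 0.0873) or replicate 2 (adjusted p = 0.069). This Siglech call was also lost with the replicate number as a block, with only the 6 libraries compared and in the weighted limma fit.

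Among 11 tested of 12 other pDC genes, 4 rose and 2 fell in IMQ against vaseline skin, and 0 rose and 1 fell in gel-treated against IMQ skin. In gel-treated against IMQ skin, 7 had an unadjusted p under 0.05, and DESeq2 called 1 higher and 4 lower. Tlr9, the pDC sensor of DNA that B cells also make, rose by 1.04 in IMQ against vaseline skin (SE 0.19, adjusted p = 0.00159), and Tlr7, the receptor of IMQ, rose by 1.15 (SE 0.21, adjusted p = 0.00163). Ly6d, which keratinocytes also make, rose by 1.25 (SE 0.09, adjusted p = 5.87e-06), with group means of 252 CPM or more throughout. Cox6a2, a cytochrome oxidase subunit of pDC that muscle also makes, fell by 1.12 in IMQ against vaseline skin (SE 0.11, adjusted p = 3.43e-05). It fell by 0.49 in gel-treated against IMQ skin (SE 0.11, adjusted p = 0.0382), a call lost without any 1 library other than IMQ replicate 3 (adjusted p up to 0.137). Klk1, the second of the 2 that fell, had 0.0677 CPM in IMQ skin and 3.43 CPM in vaseline skin (log2 -5.5, SE 0.78, adjusted p = 0.000346). Its counts were 0, 0 and 4 in the IMQ libraries. Siglech, Tlr7 and Tlr9 thus did not move together: Tlr7 and Tlr9 were higher in IMQ skin than in vaseline skin. Siglech was lower there, as were Cox6a2 and Klk1. B cell genes, which Irf8 and Tlr9 share, summed to 14.7 to 18.1 CPM in gel-treated skin, 6.91 to 11.7 CPM in IMQ skin and 2.2 to 2.81 CPM in vaseline skin, and only 3 of the 7 reached the count needed for testing. Of these, 1 (Cd79b) rose in IMQ against vaseline skin (3 without IMQ replicate 3, and 2 without IMQ replicate 2, gel-treated replicate 2 or 3, or any 1 vaseline library); in gel-treated against IMQ skin edgeR called 0, DESeq2 called 1, and 1 had an unadjusted p under 0.05. Their part in the Irf8 values was not tested.

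**Figure D2:**
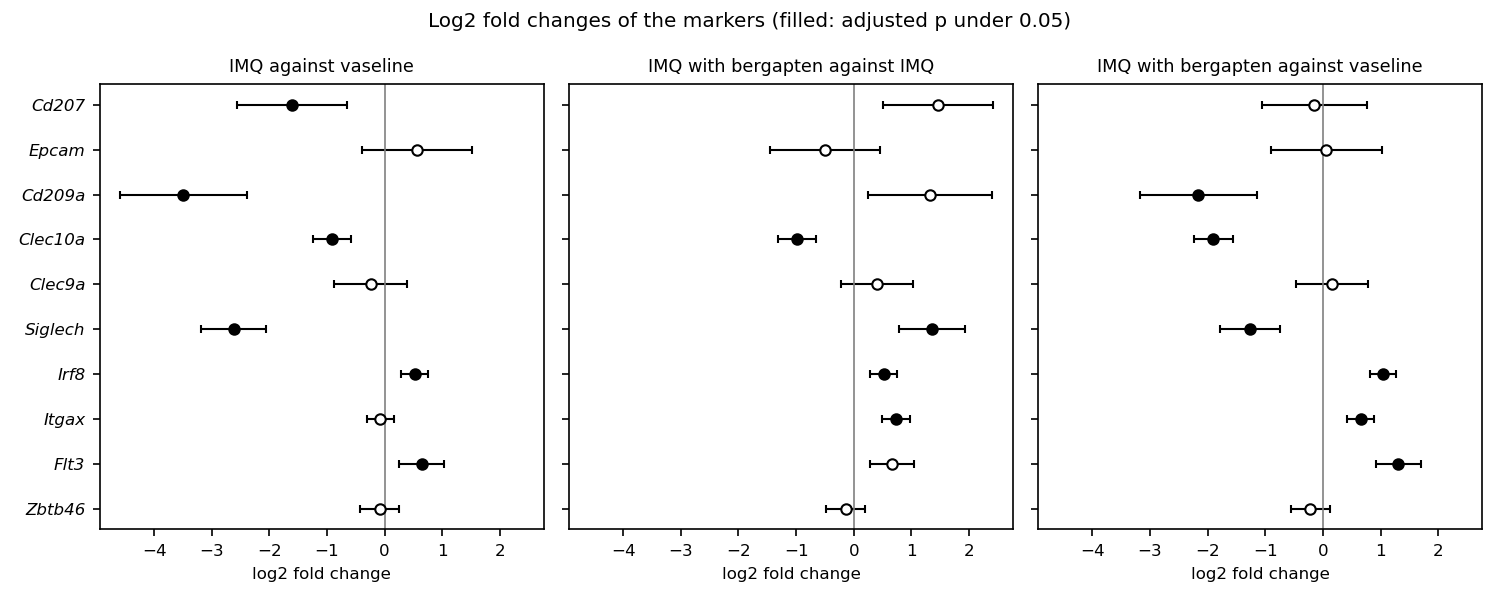
Log2 fold change of each marker (horizontal axis) in the 3 comparisons, with 95% intervals as lines and filled points for adjusted p under 0.05. Clec10a is lower in all 3 comparisons, Siglech and Cd209a lie below 0 against vaseline skin and above 0 in gel-treated against IMQ skin, and Zbtb46 and Clec9a intervals cross 0 throughout.

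Among growth factors and transcription factors of dendritic cells other than the markers, 14 of 15 were tested. In IMQ against vaseline skin 5 rose and 6 fell. Flt3l, the ligand of Flt3, fell to 2.58 ± 0.625 CPM in IMQ skin, against 8.06 ± 1.04 CPM in vaseline skin (log2 -1.64, SE 0.31, adjusted p = 0.00199), so that ligand and receptor transcripts moved in opposite directions. Csf1, the macrophage growth factor, fell by 1.16 (SE 0.18, adjusted p = 0.000683), and Nfil3, a transcription factor that cDC1 progenitors need, rose by 2.12 (SE 0.30, adjusted p = 0.000561). For gel-treated against IMQ skin 2 rose and 1 fell. Csf2ra, a chain of the receptor for GM-CSF, rose to 48.6 ± 0.0804 CPM in gel-treated skin, against 23.3 ± 2.06 CPM in IMQ skin (log2 1.06, SE 0.14, adjusted p = 0.00493), in all 9 fits with 1 library left out. Nfil3 fell to 18.6 ± 3.79 CPM in gel-treated skin, against 51.2 ± 22.7 CPM in IMQ skin (log2 -1.46, SE 0.29, adjusted p = 0.0312), lost without any 1 gel-treated or vaseline library (adjusted p up to 0.121). Zeb2, a factor of pDC and cDC2 development, rose by 0.48 (SE 0.12, adjusted p = 0.0443), lost without any 1 library other than IMQ replicate 1 (adjusted p up to 0.158). Flt3l had 3.65 ± 1.41 CPM in gel-treated skin and differed from IMQ skin by 0.49 (SE 0.31, adjusted p = 0.389), with gel-treated and IMQ libraries overlapping.

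Of 16 genes of dendritic cell maturation and migration, 15 were tested. Lamp3 was not tested, with counts of 0, 2 and 3 in gel-treated libraries, 0 in every IMQ library and 0, 1 and 1 in vaseline libraries. In IMQ against vaseline skin 1 rose and 3 fell, with 3 rising without IMQ replicate 2. Cd83, an activation marker, fell to 7.20 ± 1.97 CPM in IMQ skin, against 34.7 ± 21.5 CPM in vaseline skin (log2 -2.27, SE 0.44, adjusted p = 0.00375). Vaseline replicate 3 was high, at 58.8 CPM against 17.7 and 27.5 CPM in replicates 1 and 2, and without it the log2 value was -1.67 (adjusted p = 0.00253). Ccl21a, the lymphatic chemokine that guides dendritic cells, fell by 1.24 (SE 0.15, adjusted p = 0.000144). Ccr7, its receptor, rose by 1.00 (SE 0.30, adjusted p = 0.0218), a call lost without IMQ replicate 3, vaseline replicate 1 or vaseline replicate 2 (adjusted p up to 0.0872). Against IMQ skin, 1 of these genes rose and 0 fell in gel-treated skin in edgeR; 6 had an unadjusted p under 0.05, and DESeq2 called 2 higher and 1 lower. Ccl21a rose there to 108 ± 13.5 CPM in gel-treated skin, against 67.9 ± 14.3 CPM in IMQ skin (log2 0.67, SE 0.15, adjusted p = 0.0371), lost without any 1 library other than IMQ replicate 2 or 3 (adjusted p up to 0.141). Mouse Ccl21 genes are near-identical copies, so its counts are uncertain.

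**Figure D3:**
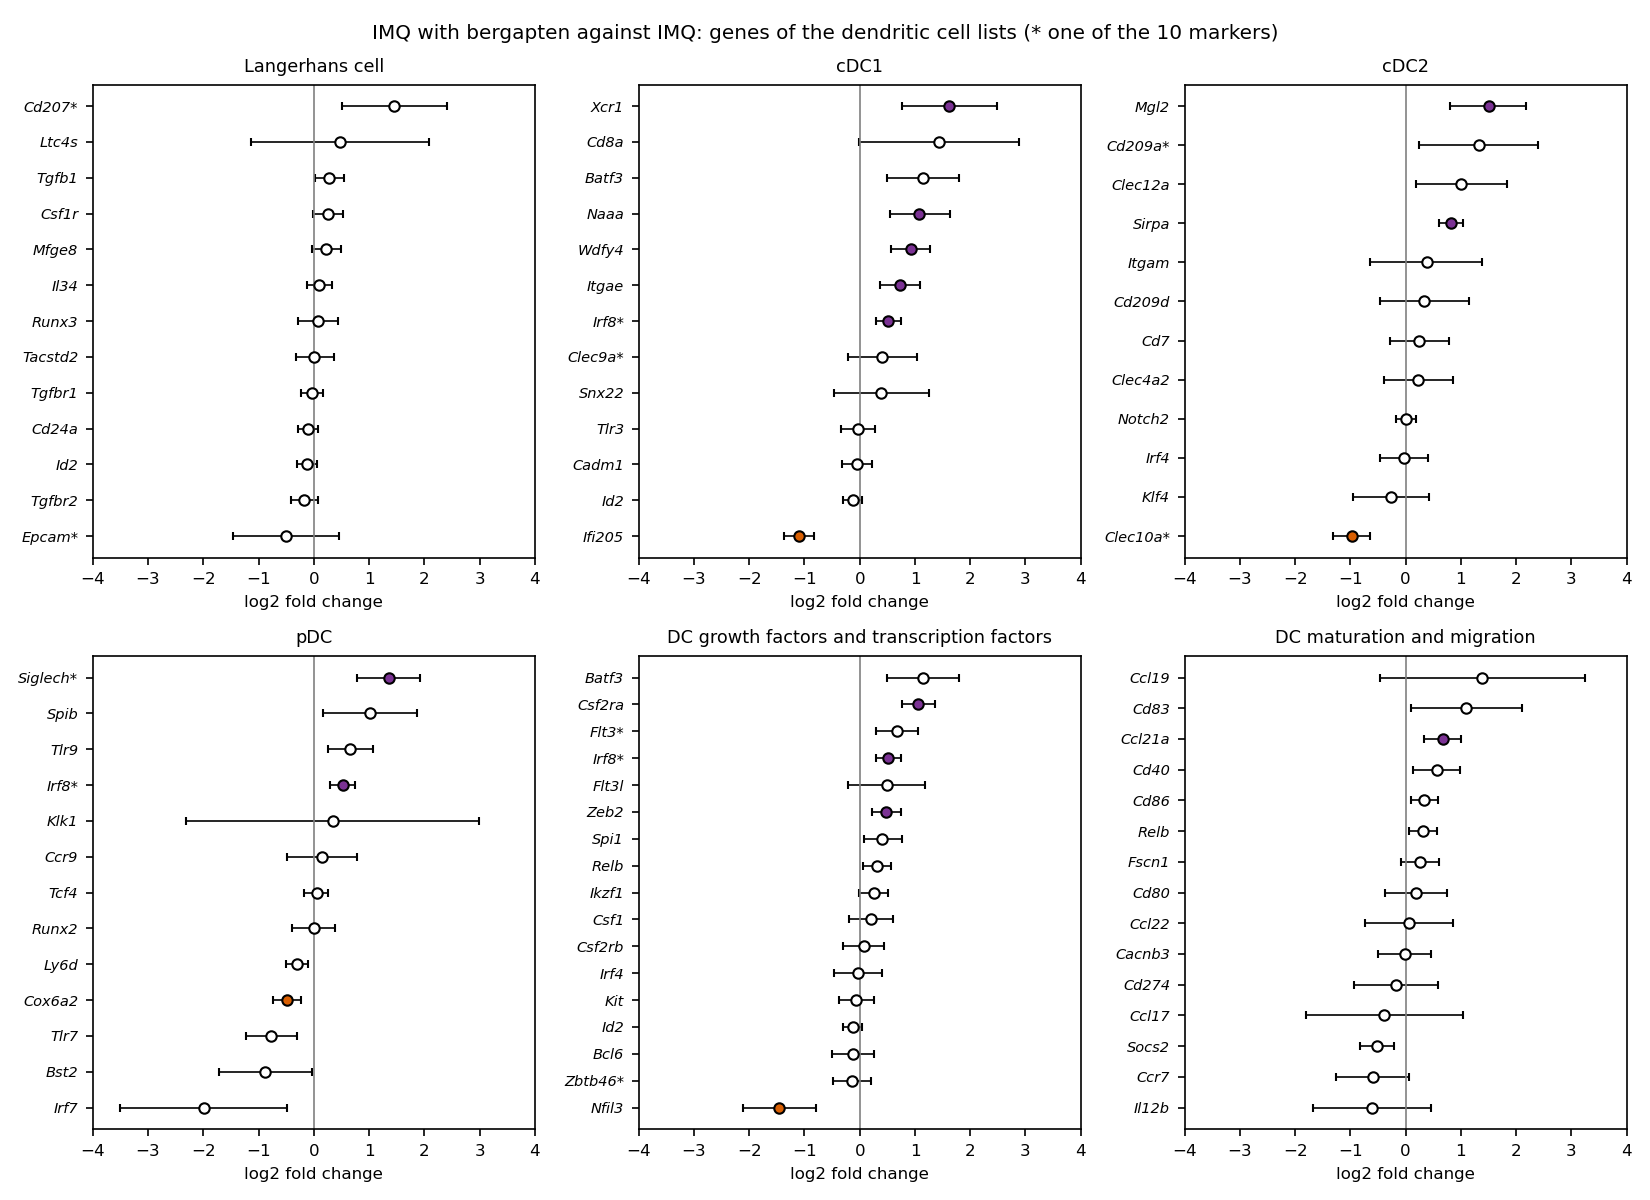
Log2 fold change in gel-treated against IMQ skin (horizontal axis) of the tested genes of the 6 lists around the markers. Lines are 95% intervals, filled points have an adjusted p under 0.05, and names of markers are starred. In the cDC1 panel 5 filled points, with the marker Irf8 among them, lie above 0 and Ifi205 below it. In the Langerhans panel no point is filled.

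Ratios between markers within a library do not depend on how libraries are scaled to each other. The log2 ratio of Clec10a to Cd209a averaged 2.19 ± 0.45 in gel-treated skin, 4.81 ± 1.46 in IMQ skin and 1.92 ± 0.04 in vaseline skin (SD, n = 3 each). IMQ libraries lay above all others, and gel-treated skin overlapped vaseline skin, with a difference of 0.27 (exact permutation p = 0.5). The ratio of Cd207 to Epcam averaged -1.84 ± 0.13 in gel-treated skin, -3.80 ± 1.94 in IMQ skin and -1.63 ± 0.14 in vaseline skin, with the lowest value in IMQ replicate 2. Siglech to Irf8 averaged -4.52 ± 0.43 in gel-treated skin, -5.32 ± 0.28 in IMQ skin and -2.18 ± 0.21 in vaseline skin, so that in both inflamed groups the pDC lectin was low relative to the factor it shares with other cells. With 3 libraries against 3, the smallest p of an exact two-sided permutation test is 0.1, and 0.131 after adjustment over the 21 ratio tests, so no ratio could pass. The ratio of Clec9a to Cd209a averaged -0.91 ± 0.7 in gel-treated skin, 0.34 ± 1.63 in IMQ skin and -3.22 ± 0.21 in vaseline skin.

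The ratio to Ptprc, the CD45 gene of all leukocytes, sets the markers against the leukocyte content of the skin. Ptprc had 241 ± 14.4 CPM in gel-treated skin, 152 ± 39.6 CPM in IMQ skin and 95.6 ± 7.37 CPM in vaseline skin. It rose in IMQ against vaseline skin (log2 0.67, SE 0.17, adjusted p = 0.00918), and its difference of 0.66 in gel-treated against IMQ skin did not pass (SE 0.17, adjusted p = 0.054). The log2 ratio of Itgax to Ptprc averaged -3.19 ± 0.04 in gel-treated skin, -3.23 ± 0.36 in IMQ skin and -2.51 ± 0.14 in vaseline skin. Gel-treated and IMQ skin differed in it by 0.04 (exact permutation p = 1.0), and the sign turned to -0.08 without IMQ replicate 1 and -0.05 without IMQ replicate 3. In gel-treated skin this ratio ran from -3.24 to -3.15, inside the IMQ range of -3.46 to -2.82; as no ratio test could pass, this is a description of the libraries. Cd207 to Ptprc averaged -2.94 ± 0.16 in gel-treated skin, -3.93 ± 0.75 in IMQ skin and -1.46 ± 0.21 in vaseline skin, so on this scale gel-treated libraries lay between the other groups. Siglech to Ptprc averaged -5.89 ± 0.39 in gel-treated skin, -6.52 ± 0.34 in IMQ skin and -3.26 ± 0.06 in vaseline skin, with gel-treated and IMQ libraries overlapping (difference 0.64, exact permutation p = 0.2).

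**Figure D4:**
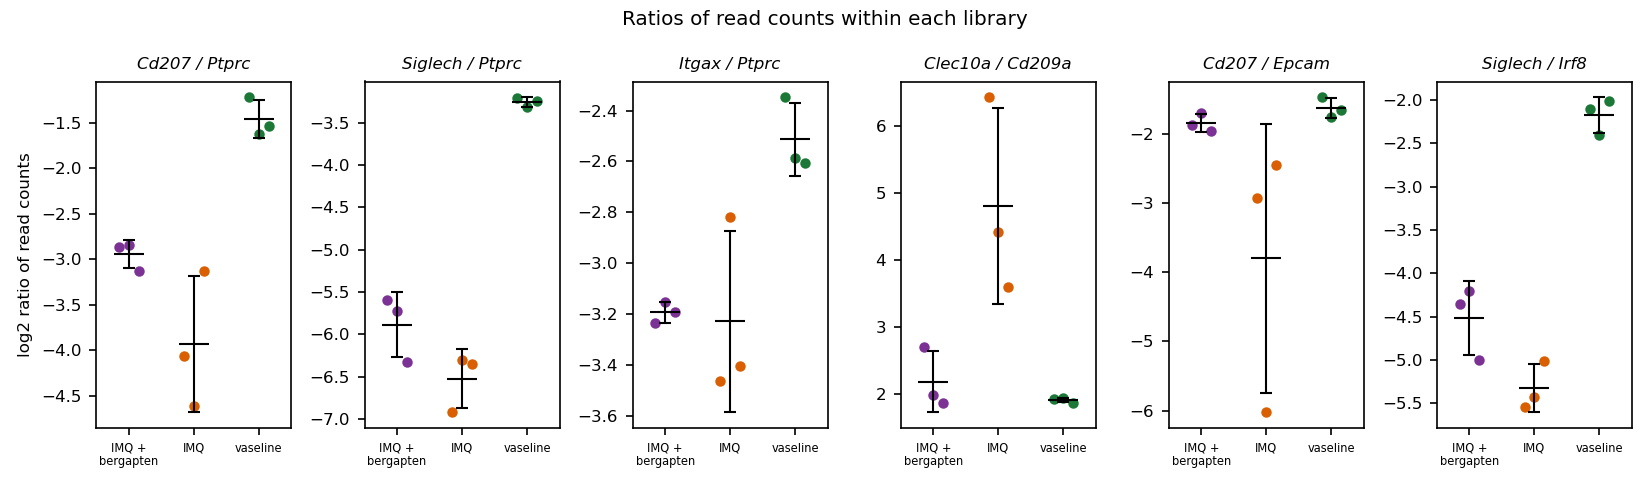
Log2 ratio of counts between pairs of genes within each library (vertical axis), for gel-treated, IMQ and vaseline skin from left to right. Points are libraries, and bars with lines are the mean and SD of 3. The ratio of Itgax to Ptprc averages -3.19 and -3.23 in gel-treated and IMQ skin, and the ratio of Clec10a to Cd209a is highest in IMQ skin.

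The 6 genes of the leukocyte list summed to 908 to 1060 CPM in gel-treated skin, 602 to 838 CPM in IMQ skin and 391 to 428 CPM in vaseline skin. All 6 rose in IMQ against vaseline skin, 2 of 6 (Coro1a and Ptpn6) rose in gel-treated against IMQ skin, and 5 had an unadjusted p under 0.05 there. Both calls were lost without any 1 gel-treated or vaseline library or IMQ replicate 3 (adjusted p up to 0.135), and 5 of the 6 rose without IMQ replicate 1 and 3 without IMQ replicate 2. T and NK cell genes summed to 44.2 to 57.7 CPM in gel-treated skin, 43.0 to 49.0 CPM in IMQ skin and 21.9 to 28.1 CPM in vaseline skin, with 3 of 7 tested higher in IMQ against vaseline skin and 1 (Cd4) higher in gel-treated against IMQ skin. Neutrophil genes summed to 2780 to 6710 CPM in gel-treated skin, 3820 to 9620 CPM in IMQ skin and 43.7 to 62.2 CPM in vaseline skin, where Ly6g was at 0 in every library. In both IMQ groups this sum was mostly S100a8 (means of 1610 CPM in gel-treated and 2380 CPM in IMQ skin) and S100a9 (3380 and 4620 CPM). Csf3r had the higher mean in gel-treated skin, 108 ± 25.3 CPM against 78.9 ± 36.1 CPM in IMQ skin. All other genes of the list had the lower mean there. Of its 7 genes, 6 rose and 1 fell in IMQ against vaseline skin, and 1 (Retnlg) fell in gel-treated against IMQ skin, a call lost without any 1 gel-treated or vaseline library (adjusted p up to 0.127). The part of these cells in the marker values was not tested.

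The genes whose pattern over the 9 libraries was most like a marker's were found by the root mean square difference of centred log2 CPM, over 15472 genes with a mean of at least 1 CPM. For Itgax these were Sh3rf2 (0.077), Prkcb (0.113) and Rp2 (0.118). For Flt3 they were Itgae (0.111), Cpxm1 (0.12) and Parm1 (0.123), and for Irf8 they were Pola1 (0.115), Camk1d (0.117) and Dock2 (0.118). For Clec10a they were Serpina3c (0.115), Eef1a2 (0.188) and Ifi205 (0.188), and for Cd207 Gm16008 (0.208), Ajm1 (0.235) and Nnmt (0.328). For Siglech the nearest, Ppp2r2c, lay at 0.206 and for Cd209a the nearest, Gm15486, at 0.291, further off than the nearest genes of Itgax, Flt3, Irf8 and Clec10a. Flt3 and Itgae, both listed above, thus had the same profile to within 0.111 log2 units on average.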

How the data were processed

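RNA sequencing of back skin gave 9 libraries in 3 groups of 3. The submitters' processing notes name Trimmomatic, HISAT2, HTSeq 0.6.0 and the genome build GRCm39. The authors deposited whole-number read counts per gene, unscaled, and beside them FPKM values, scaled for depth and gene length. Strand use and the treatment of reads matching several genes are not given in the sources used here. Of 56861 rows, 2 are wrapped annotation text that names no gene. FPKM was used only to rank levels between genes.

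edgeR 4.0.16 (R 4.3.3, TMM, robust quasi-likelihood F test) fitted the 3 group means over all 9 libraries. The filter filterByExpr (minimum count 10, minimum total 15) kept 18005 genes. Two-sided p-values were adjusted by Benjamini-Hochberg over these genes, and a gene is said to have changed at an adjusted p under 0.05. SE is the absolute log2 fold change over the square root of F, and 95% intervals use the model's degrees of freedom. CPM values with ± are means and SDs of 3 libraries; a prior count of 2 entered only log2 CPM. Ratios of counts, with 0.5 added to each count, were compared by exact permutation tests. The procedure was tested on simulated data in which all groups had the same spread, so the wider spread of the IMQ libraries was not simulated.

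The markers, gene lists and alternatives were chosen with earlier results of these data known. The rule for naming genes takes the markers, up to 4 other genes per list and comparison with the smallest raw p, and the 3 genes most like a marker; not all are printed. Alternatives were RLE factors, DESeq2 1.42.0, weighted voom in limma 3.58.1, no filter, 6 libraries only, a replicate block, Rn18s and mitochondrial genes left out, and each library left out in turn. Gene coordinates are the table's, on GRCm39; promoters are RefSeq's on GRCm38.p6, and the builds were not mixed.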

Additional observations from a re-analysis of the deposited data

How the results depend on the processing

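Over 480 alternative values of the 30 marker fold changes, 449 kept their direction and side of the threshold, 14 lost the call, 12 gained it and 5 changed sign. The changes of sign were Epcam in IMQ against vaseline skin (-0.20 without IMQ replicate 2, -0.03 in the weighted fit), Epcam in gel-treated against IMQ skin (0.27 and 0.08 under the same settings) and Clec9a in gel-treated against vaseline skin (-0.09 without gel-treated replicate 1). Over all fits with 1 library left out these ran from -0.20 to 0.84, from -0.81 to 0.27 and from -0.09 to 0.34. The difference in the ratio of Itgax to Ptprc between gel-treated and IMQ skin became -0.08 without IMQ replicate 1 and -0.05 without IMQ replicate 3, in a range of -0.08 to 0.24. In gel-treated against IMQ skin, 4 markers and 869 genes were called. These were 2 and 489 with the replicate block, 1 and 130 with only the 6 libraries compared, and 7 and 1866 with DESeq2. Leaving out 1 library gave 2 to 7 markers and 139 to 1711 genes, with 139, 332 and 176 genes without gel-treated replicates 1, 2 and 3, 1711 without IMQ replicate 3 and 443 to 480 without any 1 vaseline library. The cause was not tested. Counts of markers and of all genes in both comparisons with vaseline skin stayed within 1.5 times; counts of the gene lists did not (in IMQ against vaseline skin 1 to 5 Langerhans genes and 1 to 5 cDC1 genes fell with 1 library left out). The call of Cd207 in IMQ against vaseline skin was lost without the filter (adjusted p = 0.0572). Same-numbered libraries correlated at -0.091 to 0.176, and 0 to 3 of 6 matched their own number best. With 3 libraries a group, these values do not settle whether the replicate numbers pair libraries, and the main fit used no pairing. The depth limits what can be said of markers below 5 CPM in any group: Clec9a, Siglech and, in IMQ skin, Cd209a.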
